A study of Mus musculus with 26 samples.

Results

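The comparison described here set dendritic cells with deleted mTOR against wild-type dendritic cells in the lungs of mice given house dust mite (HDM), a common airway allergen. It comprised the 6 libraries labelled as lung inflammatory DCs, 3 KO and 3 WT, of 26 RNA-seq libraries in the series. The other 20 libraries hold KO and WT cells of 4 steady-state populations, of which the lung CD11b DCs and the alveolar macrophages, with 3 libraries per genotype each, are used below for comparison. Both genotypes of the inflammatory group received HDM into the nose, 25 µL at 1 mg/mL, 3 times a week, and the sample labels place the collection at day 17 while the protocol names 18 days. WT mice were littermates of the KO mice, and the labels name neither the Cre driver, nor the deleted exons, nor the age of the animals. No label says that the 3 libraries of a group came from separate animals. Every p-value therefore measures spread between libraries of the same group, which the main fit takes over all 26 libraries. The libraries are called WT 1 to 3 and KO 1 to 3, and these numbers pair no samples.

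mTOR is a kinase that works in a pair of complexes, one of which reads amino acids, growth factors and energy and drives protein synthesis, lipid synthesis and glycolysis while restraining autophagy and the lysosomal transcription factors. In DCs it acts downstream of the growth factor receptors Flt3 and the GM-CSF receptor. Inflammatory DCs are known to arise from monocytes that enter inflamed tissue, and they carry macrophage markers beside MHC class II and CD11c. They take up allergen, secrete chemokines and cytokines, and restimulate T cells in the airway.

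All values are normalized counts, that is reads per gene divided by a library's size factor, and the 6 libraries held 8724796 to 12794251 reads. Of 23420 gene symbols, 15799 were above 0 in at least 1 of the 6 libraries, and 11669 reached 10 normalized counts in at least 2 of them and were tested. Differences are KO minus WT on the log2(normalized count + 1) scale, which understates the change of low genes. They are given ± SE with n = 3 against 3, and that SE pools the spread within the groups of all 26 libraries. A gene was called, and is said to have risen or fallen, at an adjusted p under 0.05 in limma, a linear model fitted across all genes and all 26 libraries with Benjamini-Hochberg adjustment. Every adjusted p below comes from that fit unless another tool is named.

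The sorted cells carried more macrophage than conventional DC markers. Flt3, the growth factor receptor of conventional DCs, stood at 129 ± 35.7 normalized counts (SD, n = 3) in WT inflammatory DCs against 2654 ± 702 in WT lung CD11b DCs and 51.0 ± 3.83 in WT alveolar macrophages. Zbtb46, a transcription factor of conventional DCs, gave 97.0 ± 12.3 against 1033 ± 280 in the WT lung CD11b DCs. The macrophage receptor tyrosine kinase gene Mertk stood at 2970 ± 115 in the WT inflammatory DCs and at 127 ± 70.7 in the WT lung CD11b DCs. Arginase gene Arg1 was present at 15426 ± 7514 and at 114 ± 147. The high-affinity IgE receptor chain Fcer1a, a marker used for inflammatory DCs, was at 0 in 5 of the 6 libraries. Several alveolar macrophage genes were also present: carbonic anhydrase gene Car4 reached 6692 ± 5180 in WT inflammatory DCs and 6251 ± 392 in WT alveolar macrophages. Others were far lower than in alveolar macrophages, among them Fabp1 with 37.1 ± 37.5 against 2512 ± 238 and Siglec5, as the table names Siglecf, with 511 ± 179 against 7198 ± 190. The label of inflammatory DC is therefore kept here as the name of the sort, for cells with both monocyte or macrophage and some alveolar macrophage transcripts.

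**Figure D1:**
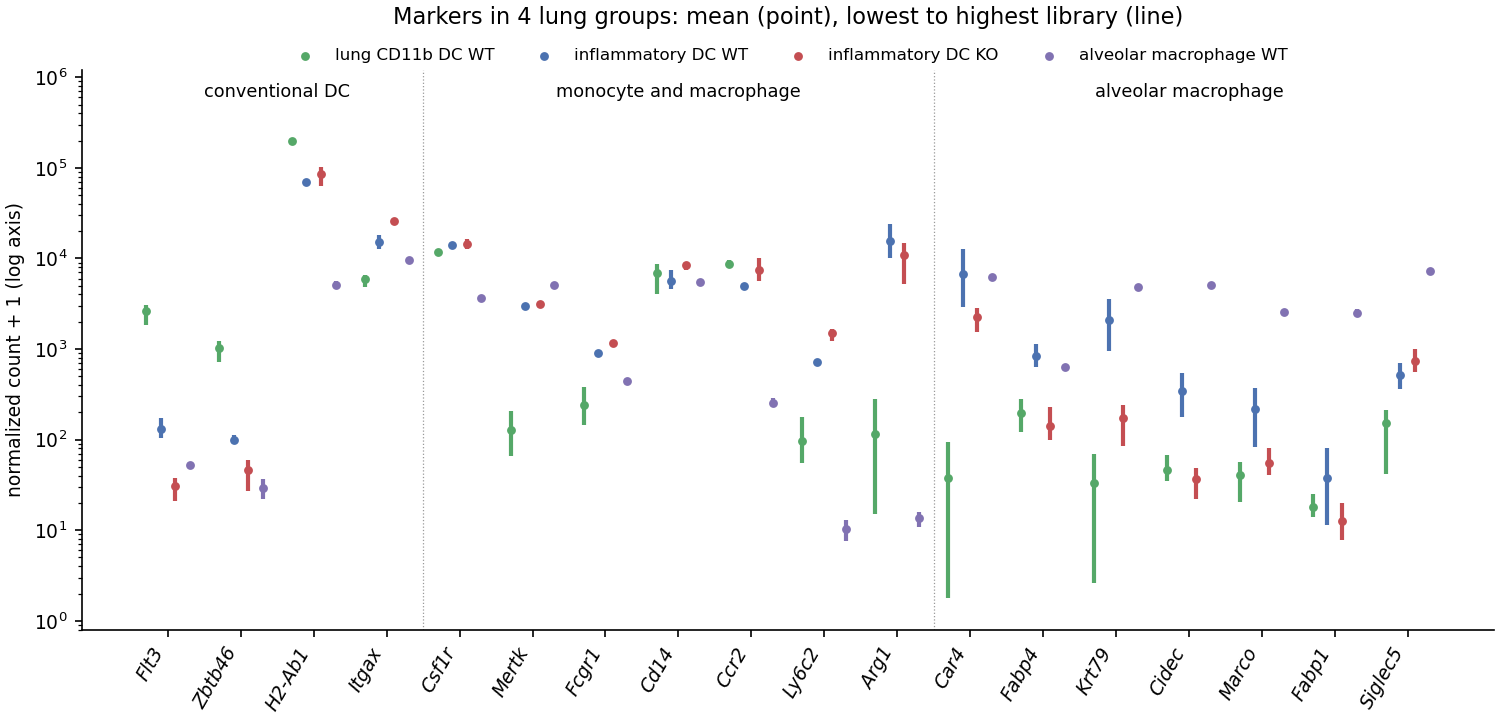
Levels of 18 marker genes (normalized count + 1, log axis) in WT lung CD11b DCs, WT and KO inflammatory DCs and WT alveolar macrophages, with the mean of 3 libraries as a point and the lowest to highest library as a line. The inflammatory DCs lie below the lung CD11b DCs for Flt3 and Zbtb46, above them for Mertk and Arg1, and below the alveolar macrophages for Marco, Fabp1 and Siglec5.

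The library WT 1 stood apart in its sex-linked reads: it held Xist at 717 normalized counts together with a sum of Y-linked genes of 1420, while the other 5 libraries held Xist at no more than 5.8 and Y-linked sums of 2081 to 2523. WT 1 was also the highest of the WT libraries for Krt79, Krt19, Cidec, Marco and Car4. The first principal component, with 42.6% of the variance, placed the 3 WT libraries between -40.1 and -18.0 and the 3 KO libraries between 22.8 and 36.8. The second component, with 18.8%, did not separate the genotypes.

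Mtor itself (chromosome 4, 148448611 to 148557683, mm10) was read at 403.6, 345.1 and 336.2 normalized counts in WT and at 196.3, 236.1 and 217.5 in KO. Every KO library lay below every WT library, yet the difference of -0.74 ± 0.22 missed the threshold with an adjusted p of 0.0624. Cells without the deletion in the sort and reads from exons outside the deletion cannot be told apart in these values. The KO effect on Mtor was -2.02 in alveolar macrophages, and the difference of 1.28 between the effects passed the test (adjusted p = 0.00885). In lung CD11b DCs the effect was -0.70, a difference of -0.04 (adjusted p = 0.956).

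Across the transcriptome 453 of 11669 genes were called (3.88%), 206 as higher in KO (1.77%) and 247 as lower (2.12%). These shares are the ones to set beside the count of called members of each list below. Changes over 2-fold were more often falls, with 148 genes lower and 51 higher. Of the 453 called genes, 436 showed no overlap between the KO and WT libraries. Among all genes tested, 1261 (10.8%) had every KO library above every WT library and 1357 (11.6%) the reverse, and the median difference was -0.01. The count of 453 fell to 212 without WT 1, 259 without WT 3, 243 without KO 2 and 248 without KO 3.

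**Figure D2:**
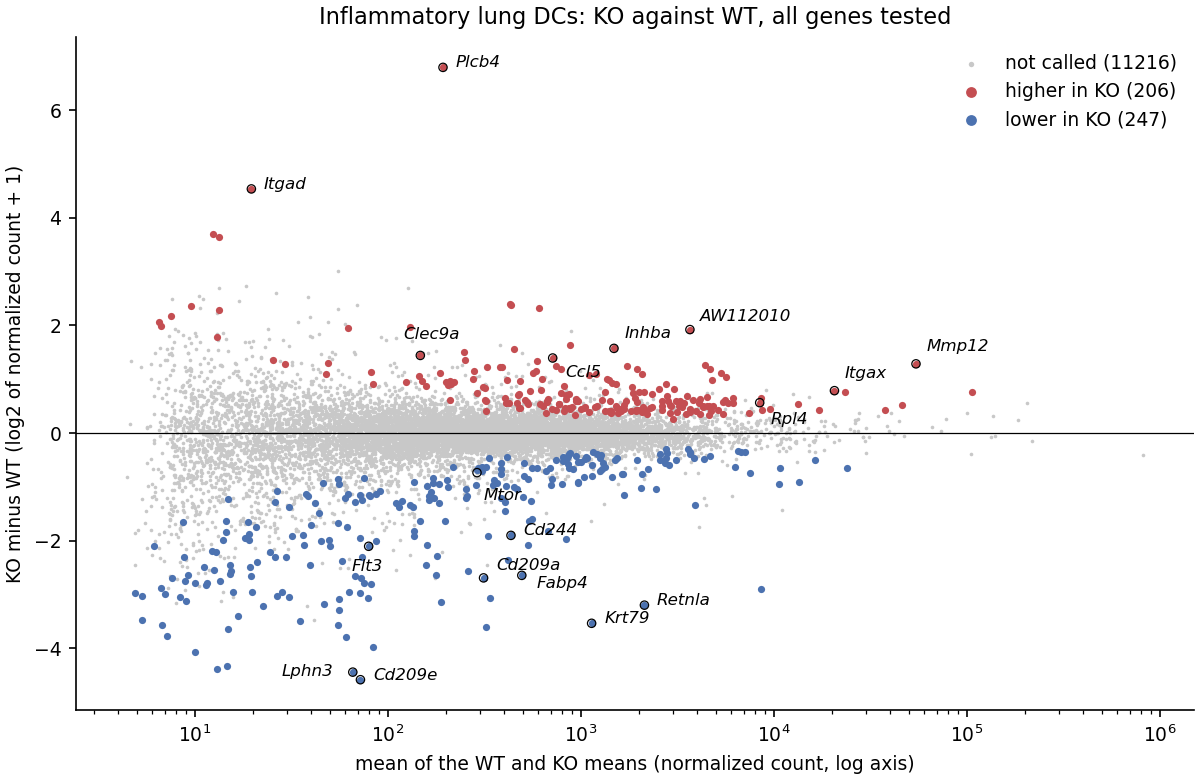
KO minus WT difference (log2 of normalized count + 1) against the mean of the WT and KO means (normalized count, log axis) for the 11669 genes tested in inflammatory DCs; red points were called as higher in KO, blue as lower, grey not called, and circles mark named genes. The 206 rises and 247 falls spread over all levels, with Plcb4 as the highest rise and Mtor, at -0.74, among the genes not called.

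Transcripts of the ribosome's own proteins held more rises than any other of the 32 function lists. Of 77 cytosolic ribosomal protein genes tested (79 listed), 30 rose and none fell, against 1.77% and 2.12% of all genes, and all 77 differences were above 0 with a median of 0.36. In 72 of the 77 every KO library was above every WT library. The mRNAs of these proteins are known to begin with a C followed by a run of C and T (U in the RNA), the 5′ terminal oligopyrimidine tract, through which mTOR controls their translation. The windows below show such runs at 6 of the risen genes. Only genes with a run of at least 7 bases are shown, so these windows do not tell how common such runs are. Each window is the RefSeq sequence (GRCm38.p6) of 30 bases on the gene's strand, 15 before and 15 from the annotated start site. Capitals mark the longest run of C and T that begins with C. By that annotation the marked runs of Rpl4, Rpl13 and Rps15a lie wholly before the start site, outside the mRNA. Those of Rps9, Rpl15 and Rpl27a cross it. In GENCODE M21, another annotation, the gene Rpl4 starts at 64173375, within its marked run. In Rps15a a shorter run that begins at the start site is in lower case.
Rpl4 (chr9:64173372-64173401, plus strand): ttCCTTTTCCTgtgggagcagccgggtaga
Rps9 (chr7:3704026-3704055, plus strand): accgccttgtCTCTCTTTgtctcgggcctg
Rpl13 (chr8:123102335-123102364, plus strand): ttCCCTTTCgcctgattttgattggcgttt
Rpl15 (chr14:18270972-18271001, minus strand): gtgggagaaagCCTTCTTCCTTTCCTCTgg
Rpl27a (chr7:109519180-109519209, plus strand): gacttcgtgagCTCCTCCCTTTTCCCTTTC
Rps15a (chr7:118116133-118116162, minus strand): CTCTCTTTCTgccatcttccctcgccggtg

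A run of at least 7 such bases, before or after the start site, was present in 30 of the 57 ribosomal protein genes with a sequence in the table (52.6%) and in 17.9% of all tested genes with one. On the other strand the shares were 8.77% and 19.2%. A match is a description of letters in the window, and annotated start sites can lie some bases from the start used in these cells.

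Rpl4, a protein of the large subunit, was read at 6972.8, 6579.6 and 6872.2 in WT and at 10231.8, 9918.0 and 10047.7 in KO, a rise of 0.56 ± 0.08 (adjusted p = 0.000451). The 3 libraries of each genotype lay close together and far from the other genotype. Rps9, of the small subunit, gave 5138.7, 4257.9 and 4688.9 in WT and 6762.5, 6663.7 and 7214.8 in KO (0.55, adjusted p = 0.00513). Rps4x, also of the small subunit, went from 2848.5, 2590.9 and 2832.7 to 4074.5, 4094.0 and 4057.6 (0.56, adjusted p = 0.00193). Rpl3 rose by 0.45 (adjusted p = 0.00405). Summed over the list, ribosomal protein transcripts made up 1.5% to 1.62% of the reads in the WT libraries and 1.98% to 2.09% in the KO libraries. How many members passed the threshold moved with the libraries used: 12 to 22 rose when 1 of the 6 libraries was left out (12 without WT 2, 13 without KO 1, 14 without WT 3 and 16 without KO 2), 13 with edgeR without WT 3, and 56 with library quality weights, and none fell in any of these. Nucleophosmin gene Npm1 was the only 1 of 30 ribosome biogenesis genes called (3343.7, 3441.1 and 3093.9 in WT, 4629.9, 5005.4 and 4951.6 in KO, 0.56, adjusted p = 0.00129), and that list had a median of -0.03.

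**Figure D3:**
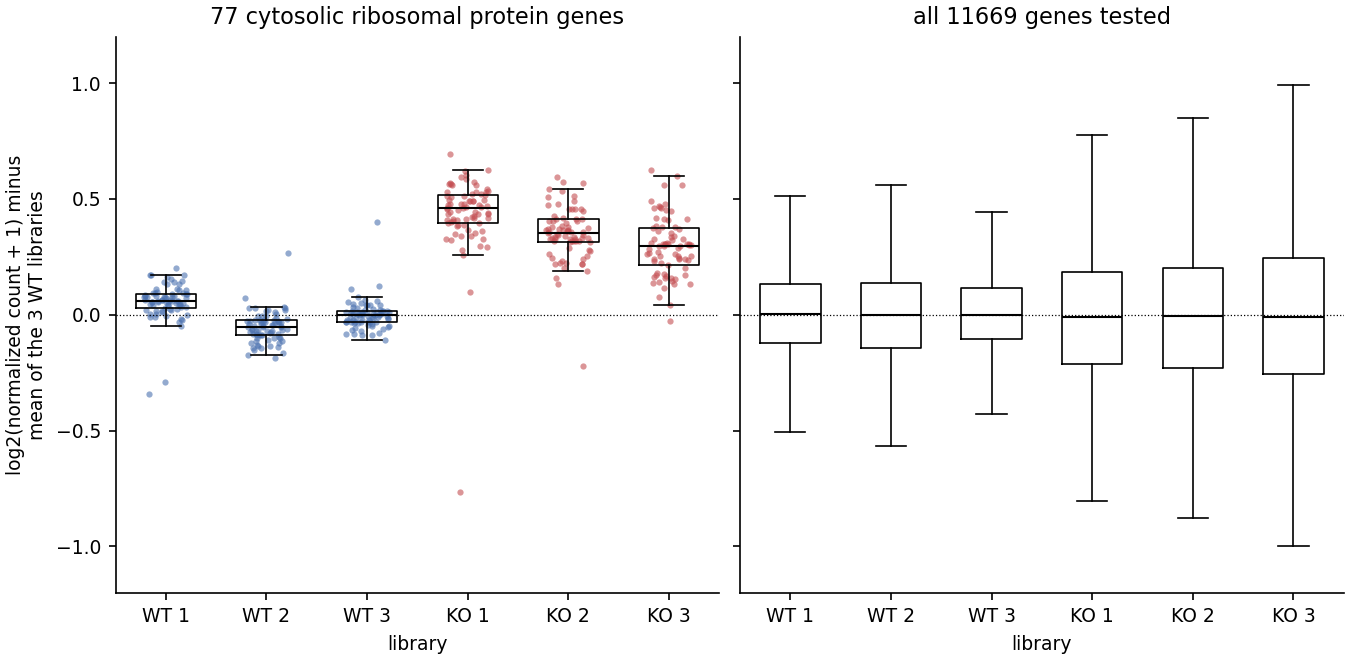
Level of each gene in each library (log2 of normalized count + 1) minus the mean of the 3 WT libraries, for the 77 ribosomal protein genes on the left and all 11669 genes tested on the right; boxes give the median and quartiles, whiskers reach 1.5 times the interquartile range, and points on the left are genes. All 3 KO libraries are shifted upward for the ribosomal protein genes while the boxes of all genes stay centred near 0.

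The pathway around mTOR and the processes it is known to control held 4 called genes in 4 lists, 1 in each. In every list that is a smaller share than the 3.88% called among all genes tested. Of 42 genes of the mTOR complexes and their regulators 1 rose and none fell, and the list median was -0.09. Among 29 autophagy genes 1 rose, the mitophagy receptor Bnip3 (0.95, adjusted p = 0.0147, median 0.05). Of 43 lysosomal genes and TFEB family factors 1 fell, the protease cathepsin L gene Ctsl, with 9785.7, 23185.5 and 10145.2 in WT and 8573.3, 6917.1 and 5425.6 in KO (-0.95, adjusted p = 0.0397). WT 2 was the high library there, and the median of the lysosomal list was -0.11. Phgdh, the first enzyme of serine synthesis, was the only 1 of 32 amino acid transport, synthesis and ATF4 target genes called: it fell from 809.0, 354.3 and 552.3 to 345.7, 140.6 and 223.8 (-1.28, adjusted p = 0.0147), in a list with a median of -0.25. Each of the 3 calls named here ended when 1 library was left out: Bnip3 without WT 1, WT 3, KO 2 or KO 3 (adjusted p up to 0.101), Ctsl without WT 2, KO 2 or KO 3 (up to 0.229), and Phgdh without WT 1, WT 3 or KO 2 (up to 0.121).

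The lists of carbon and lipid metabolism differed in their share of called genes, where 1.77% of all genes rose and 2.12% fell. The glucose transporter gene Slc2a1 rose from 787.7, 798.4 and 704.4 to 1105.1, 1163.5 and 1202.1 (0.60 ± 0.11, adjusted p = 0.00294). Of 26 glycolysis genes, 3 rose (Slc2a1, the isomerase Gpi1 by 0.35 and the pyruvate dehydrogenase kinase Pdk1 by 0.59) and 1 fell (the regulator of fructose 2,6-bisphosphate Pfkfb4, -0.51). In that list 10 genes had all KO libraries above all WT libraries, as did 10.8% of all genes, and the median was 0.11. None of 7 pentose phosphate genes was called. Fatty acid oxidation held the gene Acsl1, which activates long-chain fatty acids: it rose from 560.1, 759.3 and 795.5 to 1108.9, 1634.4 and 1740.2 (1.07 ± 0.16, adjusted p = 0.000451). Of the 32 genes of that list 1 rose and 2 fell, among them the peroxisomal enzyme Hsd17b4 (-0.35), and the median was -0.22. The TCA cycle list had 1 called gene of 26, the isocitrate dehydrogenase subunit Idh3a (-0.49), and a median of -0.14. Irg1, which makes itaconate, stood at 249.8, 529.2 and 370.2 in WT and 1051.4, 1631.8 and 1491.3 in KO without passing the test (1.90, adjusted p = 0.103). Of 51 oxidative phosphorylation genes 2 fell, Ndufa4 (636.6, 388.9 and 435.3 in WT, 260.5, 236.1 and 251.5 in KO, -0.93, adjusted p = 0.00255) and cytochrome c gene Cycs (-0.38), and the median was -0.14. No gene was called among 26 of cholesterol synthesis (median -0.14) and 14 of fatty acid synthesis (median -0.17). In the fit without 1 library, Slc2a1, Acsl1 and Ndufa4 kept their calls in every case. The calls of Gpi1 ended without any 1 of the 6 libraries, and those of Pdk1, Pfkfb4, Hsd17b4, Idh3a and Cycs without at least WT 1 and another library (adjusted p up to 0.123 for Gpi1 and 0.323 for Idh3a).

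The neighbouring integrin genes Itgax, Itgam and Itgad rose. The adhesion receptor subunit CD11c gene Itgax rose from 18010.3, 12582.7 and 15008.2 to 25248.7, 26930.8 and 25718.4 (0.79 ± 0.11, adjusted p = 0.000321), and CD11b gene Itgam from 2638.7, 5109.2 and 3608.2 to 6743.3, 8556.8 and 7384.6 (1.04 ± 0.25, adjusted p = 0.0181). The genotypes did not overlap for either. Itgad, the CD11d gene next to them on chromosome 7 (Itgam from 128062640, Itgax from 128129547 and Itgad from 128154376 to 128223816), was read at 3.6, 0.0 and 0.0 in WT and at 31.6, 35.8 and 46.5 in KO (4.54 ± 0.43, adjusted p = 1.1e-06). These are 4, 0 and 0 reads against 33, 27 and 37. The call of Itgam ended without WT 1, WT 3, KO 2 or KO 3 (adjusted p up to 0.141), while Itgax and Itgad kept theirs without any 1 library.

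Of the conventional DC markers, Flt3 had the largest fall. It went from 104.0, 113.9 and 170.1 to 36.4, 31.8 and 20.1 (-2.11 ± 0.36, adjusted p = 0.00146). Of the 8 on the list 4 fell, Flt3, the peptidase Dpp4 (170.7, 232.4 and 181.1 in WT, 64.2, 73.0 and 84.2 in KO, -1.38, adjusted p = 0.000508), the kynurenine enzyme Kmo (-0.90, adjusted p = 0.00526) and Zbtb46 (-1.14, adjusted p = 0.0177), and 1 rose, Itgax, with 4 differences above 0 and 4 below. Ccr7, the chemokine receptor that guides DCs to lymph nodes, fell from 251.6, 312.9 and 319.2 to 138.9, 103.5 and 56.6 (-1.64 ± 0.24, adjusted p = 0.000451). In contrast Clec9a, a lectin of cross-presenting cDC1, rose from 56.9, 92.0 and 86.1 to 179.1, 179.1 and 289.2 (1.44 ± 0.28, adjusted p = 0.00473), the only 1 of 8 cDC1 markers called, and Xcr1, the other defining cDC1 gene, stayed between 6.6 and 34 in the 6 libraries. In bulk RNA, fewer cells of a type and less of the transcript per cell cannot be told apart. The call of Zbtb46 ended without WT 3 or KO 3 (adjusted p up to 0.142), and the others named here held.

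The 3 tested genes of CD209 lectins, relatives of human DC-SIGN, fell. Cd209a was read at 582.3, 445.2 and 582.4 in WT and at 143.6, 63.7 and 59.1 in KO (-2.69 ± 0.37, adjusted p = 0.00026). Cd209d fell by 2.00 on the log2 scale (48.0, 20.7 and 24.0 in WT, 10.5, 6.6 and 3.8 in KO, adjusted p = 0.0177), and Cd209e had the largest fall of all named genes, -4.59 (130.7, 153.0 and 123.1 in WT, 21.1, 2.7 and 1.3 in KO, adjusted p = 0.0137). For each of the 3 the genotypes did not overlap. Among 27 genes that sense dust mite through C-type lectins and Toll-like receptors, Cd209a, Cd209d and the mannose receptor Mrc1 fell and 2 rose, with a median of 0.01. The risers were Clec4e, or Mincle, a receptor for fungal and mycobacterial glycolipids (336.9, 363.5 and 670.4 in WT, 963.3, 1048.0 and 1075.1 in KO, 1.24, adjusted p = 0.00694), and Clec4n, or Dectin-2, a receptor for dust mite glycans. Clec4n read 4338.5, 1488.7 and 3127.9 in WT and 5484.1, 6207.4 and 7191.0 in KO (1.2, adjusted p = 0.0233). Its call ended without WT 2, KO 2 or KO 3 (adjusted p up to 0.143), that of Clec4e without WT 1 (0.0594), those of Cd209d without WT 1, KO 2 or KO 3 (up to 0.126), and Cd209e without KO 2 or KO 3 (up to 0.0845).

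**Figure D4:**
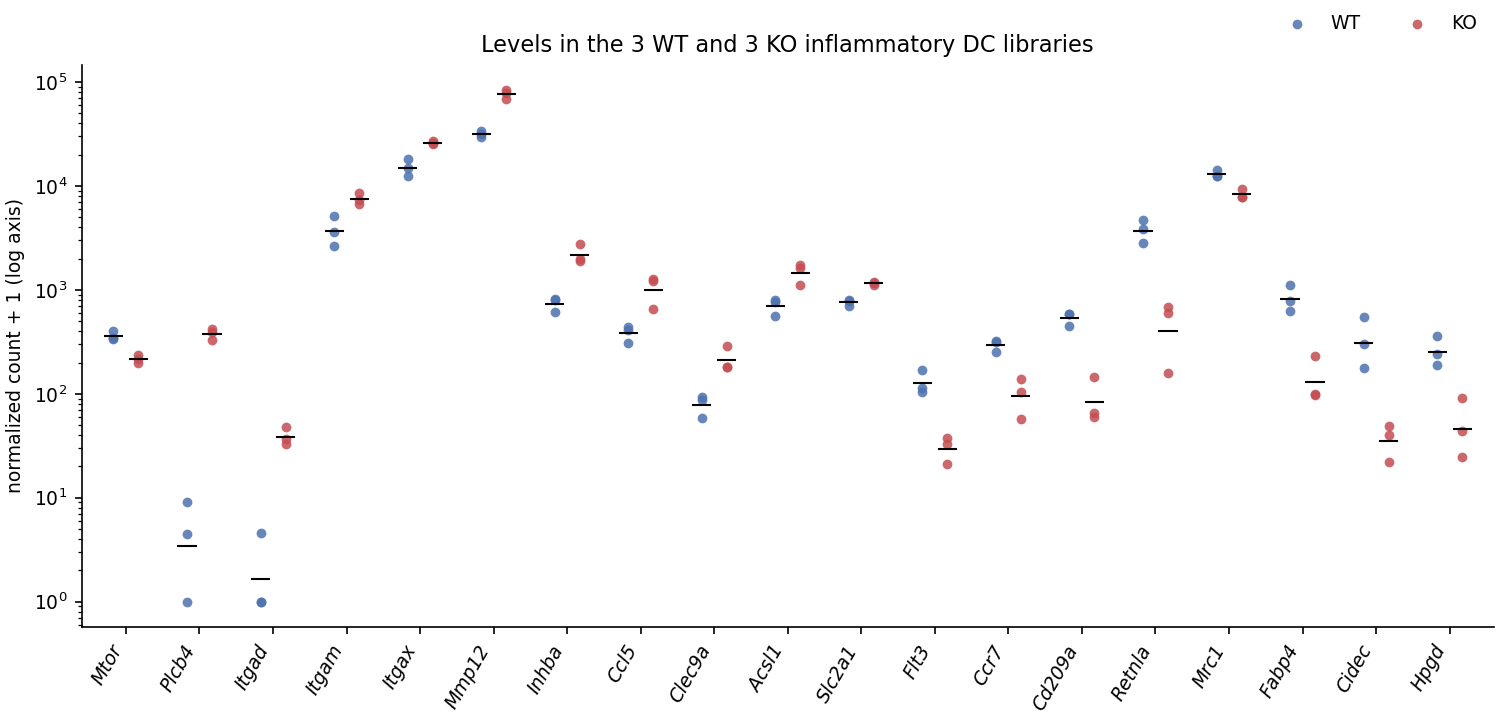
Normalized count + 1 (log axis) of 19 genes in each WT (blue) and KO (red) inflammatory DC library, with the geometric mean as a line. The KO points of Plcb4, Itgad, Mmp12 and Inhba lie above all WT points and those of Flt3, Ccr7, Cd209a, Retnla and Fabp4 below them, while Mtor, lower in all 3 KO libraries, was not called.

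Genes that load peptides on MHC class I rose in part, where 1.77% of all genes rose and 2.12% fell. All 15 tested MHC class I genes were above 0 with a median of 0.31, and 4 rose: the peptide transporter Tap1 (2417.3, 2512.6 and 2471.5 in WT, 2997.2, 4236.0 and 4091.5 in KO, 0.60, adjusted p = 0.0111), the proteasome activator Psme1 (0.48, adjusted p = 0.00547) and the immunoproteasome subunits Psmb9 (0.49, adjusted p = 0.0147) and Psmb8 (0.33, adjusted p = 0.0341). KO 1 was the lowest KO library for Tap1. In the MHC class II list 1 of 13 was called, H2-Eb2, which fell at a low level (29.3, 23.0 and 34 in WT, 9.6, 11.9 and 5.0 in KO, -1.65, adjusted p = 0.0151), and the median was 0.23. Of 18 costimulatory and coinhibitory genes, Cd86 rose from 997.5, 988.3 and 995.6 to 1123.2, 1618.5 and 1522.7 (0.50, adjusted p = 0.0358), PD-L1 gene Cd274 by 0.62 (adjusted p = 0.0305) and the inhibitory receptor Cd200r1 by 0.60 (adjusted p = 0.00298), while Ccr7, placed in this list as a maturation gene, fell. Psme1 and Cd200r1 kept their calls without any 1 library. Tap1 lost its call without KO 2 or KO 3 (adjusted p up to 0.0764), and Psmb9, Psmb8, H2-Eb2, Cd274 and Cd86 lost theirs without WT 1, WT 3 or KO 3 and in part without others (up to 0.225).

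The cytokine genes Il23a, Il6, Il1b and Il12b were not called. Il23a, the specific subunit of IL-23, stood at 2.7, 10.4 and 17.0 in WT and 16.3, 8.0 and 13.8 in KO (0.54 ± 0.99), which is 17 reads or fewer in each library, and the libraries of the genotypes overlapped. Il6 gave 142.2, 194.4 and 351.2 in WT and 180, 120.7 and 108.1 in KO (-0.68 ± 0.55), and Il1b 4176.7, 2390.7 and 5812.6 against 4338.8, 4779.9 and 4988.0 (0.28 ± 0.24). Both overlapped between the genotypes, as did Il12b (-0.75) and Ccl17, a chemokine for T helper 2 cells (-0.34). Among 23 cytokine genes, 2 rose and 1 fell with a median of 0.28. Inhba, which encodes the activin A subunit, rose from 792.1, 609.8 and 822.5 to 1905.6, 1975.4 and 2791.4 (1.57 ± 0.36, adjusted p = 0.0129), and Ebi3, the shared chain of IL-27 and IL-35, from 109.4, 134.6 and 205.1 to 223.1, 258.7 and 386.0 (0.96, adjusted p = 0.0121). The angiogenic factor Vegfa fell from 258.7, 186.4 and 240.1 to 110.1, 118.1 and 89.3 (-1.10, adjusted p = 0.0388). Inhba lost its call without WT 2 or KO 3 (adjusted p up to 0.0815), Ebi3 without WT 1 or KO 3 (up to 0.0979), and Vegfa without any library but WT 2 (up to 0.163).

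Of 12 CC chemokine genes 2 rose. Ccl5, which attracts T cells, went from 308.5, 409.6 and 435.3 to 658.8, 1208.6 and 1261.2 (1.39 ± 0.23, adjusted p = 0.00129), with KO 1 the lowest KO library. Ccl3, a chemokine for monocytes, went from 1244.7, 889.3 and 1926.2 to 3315.2, 1997.9 and 3107.0 (1.09, adjusted p = 0.0438). None of 9 CXC genes was called. Besides the fall of Ccr7, 2 of 15 chemokine receptor genes rose at low levels, Cxcr1 with 3, 1 and 10 reads in WT and 37, 12 and 12 in KO (2.28, adjusted p = 0.0209) and Cxcr6 with 5, 7 and 3 against 11, 22 and 18 (1.79, adjusted p = 0.0453). Ccl5 was called without any 1 library, whereas Ccl3, Cxcr1 and Cxcr6 were each lost without WT 1 and at least 2 other libraries (adjusted p up to 0.21).

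Genes of alternative activation, the program that IL-4 and IL-13 induce in macrophages, gave 4 falls and no rise among 28, with a median of -0.39. Of all genes 2.12% fell. Retnla, a secreted product of that program, fell from 3862.0, 4664.0 and 2819.7 to 689.5, 599.6 and 157.2 (-3.20 ± 0.62, adjusted p = 0.00463). Mgl2, the lectin CD301b, fell from 2635.1, 1723.4 and 2525.5 to 1281.3, 1142.2 and 712.9 (-1.15, adjusted p = 0.0146), and Mrc1 from 14355.4, 12359.5 and 12447.6 to 9265.6, 7920.1 and 7852.3 (-0.65, adjusted p = 0.0166). The IL-33 receptor gene Il1rl1 fell at a low level (-1.96, adjusted p = 0.0333). Arg1 (-0.53) and the chitinase-like Chi3l3 (-0.41) overlapped between the genotypes and were not called, and Chi3l3 alone took 3.75% to 9.99% of the reads of a library. Retnla held without any 1 library. Mgl2, Mrc1 and Il1rl1 were lost without WT 1 and 2 or more others (adjusted p up to 0.211).

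Of 20 alveolar macrophage markers tested, 7 fell, where 2.12% of all genes did. Of the rest 1 rose (Itgax) and 12 were not called, and the list median was -1.06. All the falls but that of Mrc1 were of genes outside the alternative activation list. The fatty acid binding protein Fabp4 fell from 784.1, 1124.0 and 627.4 to 229.8, 96.8 and 99.3 (-2.65 ± 0.38, adjusted p = 0.000319), and the lipid droplet protein Cidec from 546.8, 177.2 and 299.2 to 47.9, 21.2 and 39.0 (-3.13, adjusted p = 0.00189). Krt79, a keratin, went from 3605.1, 956.0 and 1741.1 to 183.9, 84.9 and 241.4 (-3.54, adjusted p = 0.00761). The other falls were Cd2, Krt19, the scavenger receptor Marco (-1.81, adjusted p = 0.0353) and Mrc1. WT 1 was the highest WT library for Cidec, Krt79, Krt19 and Marco, and without WT 1 only 2 of the 20 fell, while 3 fell without KO 2 and up to 8 without another library. Fabp4 and Cidec kept their calls, and Krt79 missed the threshold without WT 1 or KO 2 (adjusted p up to 0.0621). The summed level of the list, in which Chi3l3 has most of the reads, overlapped, with 7.41% to 10.8% of reads in WT and 4.4% to 9.44% in KO. Whether alveolar macrophages in the sort had a part in the falls of Retnla, Mgl2 or the lipid genes Fabp4 and Marco, which are also the 2 called genes of 28 for lipid uptake and storage, was not tested.

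Genes of tissue remodelling, lipid mediators and uptake of opsonized particles included called genes in each list, where 1.77% of all genes rose and 2.12% fell. The macrophage elastase gene Mmp12 rose from 33785.5, 31525.3 and 29606.1 to 79359.1, 83813.3 and 68724.6 (1.29 ± 0.17, adjusted p = 0.000199), the only 1 of 15 metalloproteinase genes called. Hpgd, which degrades prostaglandins, fell from 241.8, 186.4 and 359.2 to 43.1, 23.9 and 89.3 (-2.46 ± 0.33, adjusted p = 0.000223), and the leukotriene B4 receptor Ltb4r1 rose from 164.5, 185.2 and 163.1 to 337.1, 486.9 and 330.7 (1.15, adjusted p = 0.0307). They were the 2 called among 20 genes of leukotrienes and prostaglandins. Of 19 Fc and complement genes, Itgax and Itgam rose and 2 fell, among them Fcgrt, the neonatal Fc receptor that recycles IgG (1344.2, 1185.0 and 1410.9 in WT, 706.7, 701.8 and 839.9 in KO, -0.81, adjusted p = 0.000451). Leaving out any 1 library but KO 1 ended the call of Ltb4r1 (adjusted p up to 0.171), while Mmp12, Hpgd and Fcgrt kept theirs.

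In the remaining function lists, inflammasome genes had 2 rises among 16, the sensor component Naip2 (0.74, adjusted p = 0.00419) and Txnip (0.49, adjusted p = 0.027). For these lists too, 1.77% of all genes rose and 2.12% fell. Of 26 transcription factors, Id2, an inhibitor of helix-loop-helix factors, rose from 2069.7, 2203.2 and 2045.3 to 2893.8, 3128.2 and 4365.6 (0.69, adjusted p = 0.0177) and Zbtb46 and Nr4a1 fell. Nr4a1, an orphan nuclear receptor and immediate-early gene, gave 2913.4, 2295.2 and 4856.0 in WT and 1678.7, 1395.6 and 1579.3 in KO (-1.04, adjusted p = 0.0195). It was, with the factor Klf2 (-0.80), 1 of 2 falls among 26 immediate-early and heat-shock genes, a list with a median of -0.19. Of 21 survival genes 4 rose, the BCL-2 relatives Bcl2a1a (0.74), Bcl2a1d (0.54), Bcl2a1b (0.46) and Bcl2l1 (0.54). The Bcl2a1 genes are near-identical copies, so the split of reads between them is uncertain. Cell cycle genes had 2 falls among 39, E2f2 (-0.87, adjusted p = 0.0158) and the helicase subunit Mcm2 (-0.65, adjusted p = 0.0388), with a median of -0.34. Naip2 alone of these genes kept its call without any 1 library, and Bcl2a1b lost it without each of the 6 (adjusted p up to 0.212).

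By size, the largest rise was that of Plcb4, a phospholipase C that acts behind G protein-coupled receptors (chromosome 2, 135659011 to 136014593). It was almost silent in WT with 0, 3 and 8 reads and gave 343, 296 and 337 reads in KO, a difference of 6.80 ± 0.50 (adjusted p = 3.08e-08). Plcb4 was also higher in the KO libraries of lung CD11b DCs (4.57) and alveolar macrophages (5.62). Among genes that reached a mean of at least 50 in the higher genotype, the next were Fstl1, a secreted glycoprotein (85.3, 153.0 and 180.1 in WT, 893.4, 530.7 and 733.1 in KO, 2.39), the transmembrane protein Tmeff1 (2.38), the Ly6 family member Ly6i (152.9, 156.5 and 297.2 in WT, 593.7, 1198.0 and 1252.4 in KO, 2.32), Lrrc16a (1.97) and Spink2 (1.96). Dcstamp, which macrophages need to fuse into giant cells, rose from 482.8, 353.2 and 433.3 to 990.1, 1431.4 and 1600.6 (1.64, adjusted p = 0.00711). The NAD-consuming ectoenzyme Cd38 rose by 1.56 and the organic anion transporter Slco3a1 by 1.51. The long non-coding RNA AW112010 went from 1327.3, 1341.5 and 1703.0 to 3160.0, 7049.8 and 7432.4 (1.92 ± 0.24, adjusted p = 0.000112). Calls of Lrrc16a and Spink2 ended without any 1 library but KO 1 (adjusted p up to 0.15 and 0.189), that of Cd38 without WT 1, WT 3, KO 2 or KO 3 (up to 0.194) and that of Fstl1 without WT 1, KO 1 or KO 3 (up to 0.0968).

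The largest falls beside Cd209e, Krt79, Retnla and Cidec were of genes at low or moderate levels. The adhesion receptor Lphn3 went from 154.7, 85.1 and 138.1 to 1.9, 9.3 and 5.0 (-4.44 ± 0.87, adjusted p = 0.00473), and the glycoprotein Lrg1 from 1004.6, 265.8 and 525.3 to 59.4, 37.1 and 32.7 (-3.61, adjusted p = 0.0018). WT 1 was again the highest WT library for both. Wwtr1, the transcriptional coactivator TAZ (-3.98), the actin-binding Ablim1 (-3.56), the sodium channel Scn3a (-3.49), the tight junction gene Ocln (-3.28), Cpne5 (-3.19) and Cited4 (-3.09) completed the 12. The smallest p among the falls belonged to Cd244, the receptor 2B4 of the SLAM family, which went from 785.0, 538.4 and 729.4 to 137.9, 199.0 and 212.5 (-1.90 ± 0.16, adjusted p = 1.31e-07). Nav1, a cytoskeletal protein, fell from 1203.8, 990.6 and 966.6 to 593.7, 484.2 and 555.8 (-0.95, adjusted p = 7.51e-05), and the signalling adaptor Stap1 from 98.7, 57.5 and 131.1 to 18.2, 8.0 and 31.4 (-2.37, adjusted p = 0.000157). Wwtr1 and Cited4 lost their calls without WT 1 or KO 2, among others (adjusted p up to 0.125 and 0.134), and Lphn3, Lrg1, Ablim1, Scn3a, Ocln, Cpne5, Cd244, Nav1 and Stap1 kept theirs.

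Markers of other cells were called in some lists and not in others, where 3.88% of all genes tested were called. None of 8 tested neutrophil markers, 5 of NK and innate lymphoid cells, 6 of plasmacytoid DCs, 5 of endothelium and stroma, 3 of erythroid cells and platelets, and 2 of basophils and mast cells was called. Of 13 markers of monocyte-derived inflammatory DCs, Cd209a alone was called, and of 22 monocyte and macrophage markers the scavenger receptor Cd163 alone (71.1, 117.3 and 54.0 in WT, 28.7, 17.2 and 10.1 in KO, -2.10, adjusted p = 0.00294). The cDC2 list of 8 had rises of Cd1d1 and Itgam and falls of Cd209a, Mgl2 and Epcam, the last also the only called gene of 6 for lung epithelium. Of 7 tested eosinophil markers 2 rose, Prg2 with 0, 2 and 0 reads in WT and 38, 23 and 4 in KO and Ear6 with 1, 4 and 1 against 15, 6 and 8, while the defining peroxidase gene Epx was at 0 in all 6 libraries. T cell and B cell markers gave 1 fall each, Cd28 among 4 (-2.54) and Ms4a1 among 8.

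The KO effect on the interferon-stimulated genes, the antiviral genes that type I interferon switches on, differed from that in both other lung cell types. In inflammatory DCs 1 of 32 rose, none fell, and the median was -0.04. In lung CD11b DCs all 32 were higher in KO (median 2.59), where 13.4% of all genes were called as higher, and in alveolar macrophages 30 (median 2.23), where 11.4% were. Differences between the KO effects were called in either direction for 14.3% of all genes against lung CD11b DCs and for 8.71% against alveolar macrophages. The difference between the KO effects passed the test as lower in inflammatory DCs for 31 of the 32 against lung CD11b DCs, where 7.85% of all genes did, and for 22 against alveolar macrophages, where 6.01% did. Both differences use the same inflammatory DC libraries. The summed level of the list was 28610 to 35281 in WT and 31657 to 34738 in KO inflammatory DCs. It was 11760 to 13461 and 65575 to 77220 in lung CD11b DCs, and 5385 to 5719 and 9378 to 18981 in alveolar macrophages, so the WT inflammatory DCs lay above both other WT groups.

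Oas2, an enzyme that senses double-stranded RNA, was read at 653.4, 478.6 and 616.4 in WT and 444.3, 406.0 and 427.5 in KO inflammatory DCs (-0.44, not called). Its KO effect was 2.65 in lung CD11b DCs and 5.22 in alveolar macrophages. The DNA and RNA sensor Zbp1 gave 0.40 in inflammatory DCs, 2.48 in lung CD11b DCs and 1.46 in alveolar macrophages. Sex-linked reads bear on these comparisons. The inflammatory DC libraries had Y-linked sums of 1420 or more, while the WT libraries of both other cell types had 2.3 or less. In alveolar macrophages Y-linked genes summed to 2.3 or less in WT and to 660 to 2136 in KO, so sex and genotype cannot be told apart there. In lung CD11b DCs 1 KO library, KO 1, had a Y-linked sum of 1318, while KO 2 and KO 3 had 0.8 and 1.3 and the WT libraries 0 to 1.6. Without that KO 1 library the difference was called as lower in inflammatory DCs for 32 of the 32 interferon-stimulated genes. The inflammatory cells also differ from both in HDM exposure. Mtor itself fell less in inflammatory DCs than in alveolar macrophages, a called difference of 1.28. Whether that bears on the interferon-stimulated genes was not tested.

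Other lists also differed, in cells where more genes were called in all: 13.4% higher and 14.0% lower in lung CD11b DCs and 11.4% and 7.29% in alveolar macrophages, against 1.77% and 2.12% in inflammatory DCs. Of 43 lysosomal genes 33 were higher in KO lung CD11b DCs (median 0.83) and 15 in KO alveolar macrophages, against none in inflammatory DCs, and the difference was called as lower in inflammatory DCs for 27 and 13. Amino acid and ATF4 target genes, 32 in all, had 15 rises and 1 fall in lung CD11b DCs and no rise in inflammatory DCs, with 14 differences called as lower. Of 13 MHC class II genes 8 fell and 2 rose in lung CD11b DCs. The difference was called as higher in inflammatory DCs for 7, where 6.45% of all genes were, and as lower for 2, where 7.85% were. Ribosomal protein transcripts lay between the other cell types, since 75 of 77 rose in alveolar macrophages (median 0.81) and 2 in lung CD11b DCs (median -0.04). The difference was called for 23 genes in each case, higher than in lung CD11b DCs and lower than in alveolar macrophages, and these counts moved to 15 to 39 and 6 to 40 when 1 library was left out. MHC class I genes rose in each of the 3 cell types, 4 of 15 in inflammatory DCs, 11 in lung CD11b DCs and 10 in alveolar macrophages.

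**Figure D5:**
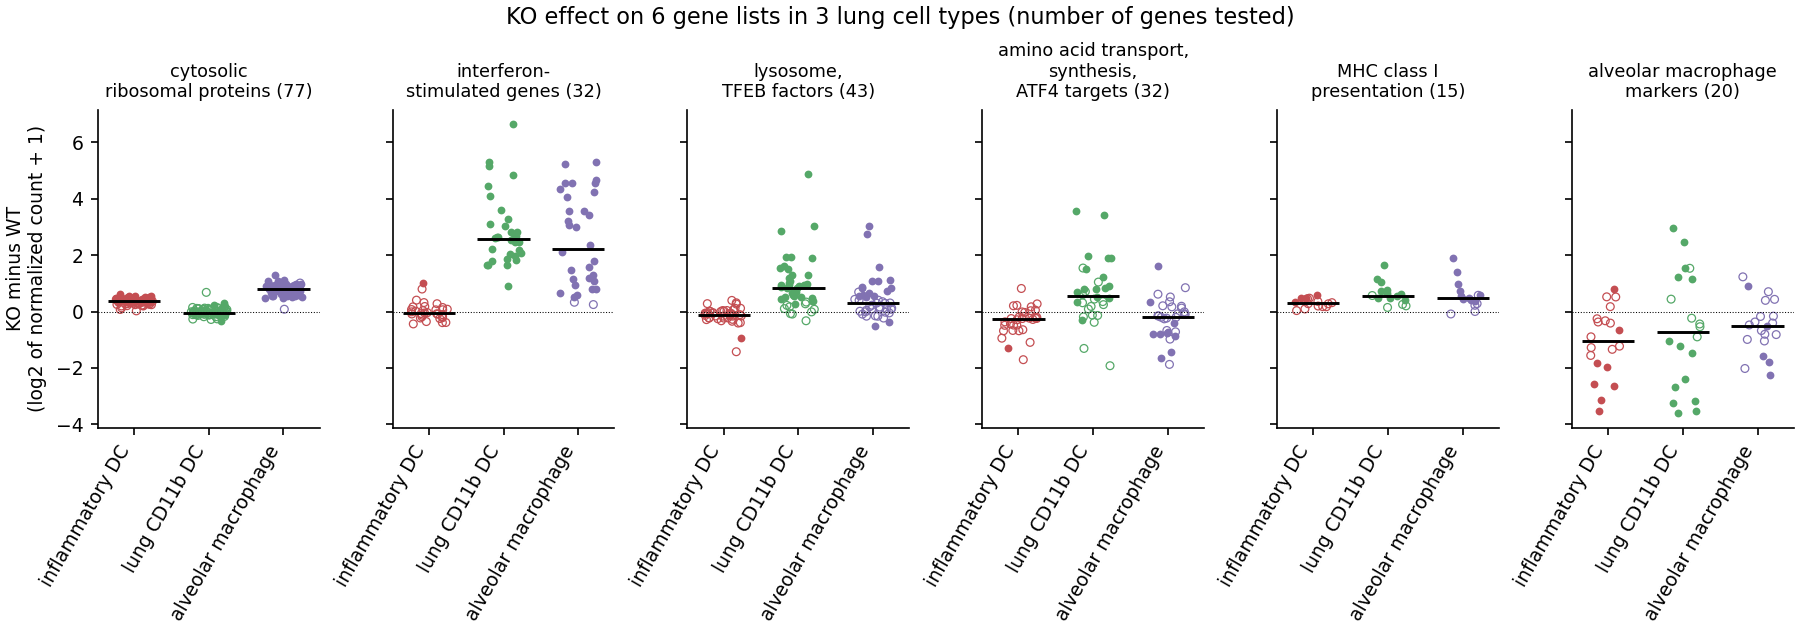
KO minus WT difference (log2 of normalized count + 1) of each tested gene of 6 lists in inflammatory DCs, lung CD11b DCs and alveolar macrophages; filled points were called, open points not, and the line is the median. The interferon-stimulated genes sit around -0.04 in inflammatory DCs and around 2.59 and 2.23 in the other cells, and the alveolar macrophage markers have a median of -1.06 in inflammatory DCs.

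Among single genes, the difference of effects was lower for some, higher for others and not called for others again. Inhba, up by 1.57 in inflammatory DCs, had KO effects of 8.10 in lung CD11b DCs and 8.40 in alveolar macrophages. The β-glucan receptor Clec7a stood at 42251.9, 45305.6 and 38049.3 in WT and at 39500.5, 46675.3 and 38337.5 in KO inflammatory DCs (-0.01), against an effect of 2.28 in lung CD11b DCs (difference -2.30, adjusted p = 2.9e-07). Mmp12 rose in all 3, by 1.29, 1.83 and 6.48. Clec9a rose in inflammatory DCs and fell by 0.89 in lung CD11b DCs (difference 2.33, adjusted p = 0.000383), and Vegfa fell in inflammatory DCs while it rose by 1.15 in lung CD11b DCs and by 1.84 in alveolar macrophages (differences -2.25 and -2.93, adjusted p = 0.000852 and 4.93e-05). Flt3 and Cd209a fell in lung CD11b DCs too, by 2.32 and 2.57 on the log2 scale, and the differences between the effects, 0.21 ± 0.51 and -0.12 ± 0.52, were not called.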

How the data were processed

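RNA of sorted cells was turned into cDNA and Nextera XT libraries, with RNA integrity numbers over 8.5 per the labels' protocols. STAR 2.3.1s, HTSeq, DESeq2 1.10.1 and mm10 are named in the submitters' processing notes, while no source used here gives the gene annotation or the strand setting. The deposited signal is a normalized count, which came out as whole reads divided by a size factor per library (100% of values within 1e-06). This held for WT 3 too, although its size factor of 0.9994 puts the step between its values close to 1. limma 3.58.1 in R 4.3.3 was run on log2(normalized count + 1) with 10 group means, a mean-variance trend and contrasts for 2 differences of KO effects. edgeR 4.0.16 and DESeq2 1.42.0 on the recovered reads were alternatives, as were pseudocounts of 0.25 and 8, other filters, library sets, weights and scaling. A few genes that the naming rule picks are not reported here. The script was tested on simulated data. Named genes were the 12 largest non-overlapping changes per direction with a mean of at least 50, the 5 smallest p per direction, up to 4 members per list, 7 given genes and the 3 smallest p per difference and direction. Coordinates are from GENCODE M21. The members and the 32 function and 16 marker lists were chosen with earlier results of these data known.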

Additional observations from a re-analysis of the deposited data

Results flagged for a closer look

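Each result here was picked out by a test of the difference between the KO effect in inflammatory DCs and the KO effect in another lung cell type (limma, adjusted p under 0.05). Values are inflammatory DC effect minus the other effect on the log2 scale.

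Against lung CD11b DCs 1669 genes were called. KO effects were lower in inflammatory DCs for Inhba (-6.53), the gene model Gm5506 (-4.83), Ablim1 (-3.54), Lrg1 (-2.95), Il12b (-2.48), Clec7a (-2.30), Clec4n (-1.89), Stap1 (-1.87) and Cd244 (-0.92). They were higher for the fibronectin-domain gene Fndc7 (2.90), the sulfatase Arsb (2.39), Clec9a (2.33), Plcb4 (2.23) and Pid1 (1.75). The lysosomal list gave 27 genes called as lower and the interferon-stimulated list 31, with Oas2 at -3.09, Oas1a at -2.86 and Zbp1 at -2.08.

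Against alveolar macrophages 1016 genes were called. The KO effect was lower in inflammatory DCs for Inhba (-6.82), the sulfotransferase Chst11 (-6.65), Cd209e (-6.15), Ablim1 (-5.96), Fstl1 (-5.59), Mmp12 (-5.19), the bridging protein Mfge8 (-4.55), Retnla (-3.44), Scn3a (-3.30), Cd209a (-3.25), Tmeff1 (-2.95), Ccl17 (-2.46), Hpgd (-2.43), Dcstamp (-2.25), Stap1 (-2.0), Ly6i (-1.93), Il12b (-1.91), Ccl5 (-1.48) and Cd244 (-1.24). Genes with a higher KO effect were Itgad (6.18), the transporter chaperone Emb (2.99), Il6 (2.99), AW112010 (2.99), Clec4n (1.43) and Mtor (1.28). The interferon-stimulated list gave 22 genes called as lower, with Oas2 at -5.66, Oas1a at -2.49 and Zbp1 at -1.06. Sex-linked reads differ with genotype in all 3 KO libraries of the alveolar macrophages and in 1 of 3 KO libraries of the lung CD11b DCs, and their part in the single-gene differences was not tested.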

How the results depend on the processing

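Of 104 called genes named, 41 kept their call under all 17 alternatives, 59 under the 10 that keep every library, and 0 changed direction. Library quality weights called 897 genes (386 higher, 511 lower) and edgeR without WT 3, chosen after seeing the data, 299 (155 lower). Leaving out 1 of the 6 libraries gave 212 to 404 calls, 97 to 177 higher and 106 to 257 lower, and for the KO effect in inflammatory DCs minus KO effect in steady-state lung CD11b DCs, genes called higher numbered 495 (without KO 3) to 1253 (without lung CD11b DC KO 1). Mtor passed the threshold with a pseudocount of 8 (-0.72), only the 6 libraries (-0.74), library quality weights (-0.71), quantile normalization (-0.72), edgeR (-0.73) and DESeq2 (-0.74), but not without any 1 library. Ribosomal protein rises numbered 19 with the 18 lung libraries, 56 with weights, 13 with edgeR without WT 3, and 12 to 22 without 1 library; alveolar macrophage marker falls were 2 to 8. No paired analysis was possible because the labels number the libraries 1 to 26 and no number is shared between the groups. The cause of these changes was not tested. Low genes, such as Il23a, rest on few reads.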

Other observations

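The groups below were put together after their values were seen, so their counts describe these libraries and carry no test of the group. Of 16 chaperones and folding enzymes of the endoplasmic reticulum, 9 fell, where 2.12% of all genes did. Every one of the 16 had all KO libraries below all WT libraries, as did 11.6% of all genes, and the median was -0.50. Hspa5, the chaperone BiP, was read at 30046.2, 24200.2 and 32860.1 in WT and 22324.2, 18022.4 and 15400.4 in KO (-0.65, adjusted p = 0.0246 in limma), and the disulfide isomerase Pdia4 at 8674.4, 10885.8 and 8484.2 against 6769.2, 6034.9 and 4184.6 (-0.74, adjusted p = 0.00298). KO 3 was the lowest library for both. Over the settings tried 3 to 11 fell, with 3 without WT 1 or WT 3. Among translation factors, 5 of 12 subunits of initiation factor 3 and 3 of 6 elongation factors rose, where 1.77% of all genes did, and 10 of the 18 were not called. Without any 1 of the 6 libraries 3 of the 12 subunits rose. The elongation factors included Eef1a1 (37546.2, 37432.9 and 38030.3 in WT, 54757.7, 53223.6 and 54955.0 in KO, 0.53, adjusted p = 0.00473 in limma) and Eef2 (0.43).

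Of 9 genes known to be high in nonclassical monocytes, the patrolling type, 6 fell (median -1.92), where 2.12% of all genes did. They were Ace, the angiotensin-converting enzyme (629.4, 434.9 and 989.6 in WT, 169.5, 49.1 and 231.4 in KO, -2.37, adjusted p = 0.000746 in limma), Treml4 (-1.92), Cd300e (-2.65), Emr4 (-2.08), Hpgd and Nr4a1. Spn (-0.63), Cx3cr1 (-0.42) and Itgal (0.43) overlapped between the genotypes and were not called. Between 5 and 7 of the 9 fell when 1 library was left out. Of 6 NADPH oxidase subunits 2 rose and 4 were not called, and of 6 peroxiredoxins 3 rose and 3 were not called and below 0. The oxidase subunit Cybb rose from 16845.6, 16291.8 and 18630.4 to 24895.4, 28636.9 and 34966.5 (0.76), its partner Ncf1 by 0.63, and the peroxiredoxins Prdx5, Prdx6 and Prdx1 by 0.91, 0.76 and 0.54. The interferon-γ-responsive Gbp2 rose from 2211.9, 2834.8 and 2380.5 to 3454.0, 7300.5 and 8095.0 (1.26, adjusted p = 0.00944 in limma), with KO 1 the lowest KO library as for Tap1 and Ccl5. The call of Gbp2 ended without WT 1, KO 2 or KO 3 (adjusted p up to 0.074). Of 10 guanylate-binding protein genes tested, Gbp2 among them, 2 rose, where 1.77% of all genes did, and none fell. All 10 differences were above 0 (median 0.84), and 0 to 4 rose over the settings tried.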
